A study of Mus musculus with 9 samples.

Results

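The insulin-like growth factor (IGF) axis was followed in HC11 mammary epithelial cells through 10 genes: the ligands Igf1 and Igf2, the receptors Igf1r and Igf2r, and the binding protein genes Igfbp2, Igfbp3, Igfbp4, Igfbp5, Igfbp6 and Igfbp7. Each gene was represented by the probeset annotated to its symbol alone, selected on the highest mean log2 level over all 9 arrays. As each gene had 1 such probeset, 10 of the 34760 on the array, this level decided nothing between probesets and is given as a description only. The genes themselves were chosen by name with earlier results of these arrays known.

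HC11 is a mouse mammary epithelial line derived from BALB/c mice in mid-pregnancy, and it carries a mutated p53 gene. All 3 strains overexpressed Mkl1, a coactivator of serum response factor (SRF), with red fluorescent protein (RFP) at its C-terminus, and all retained endogenous Mkl1. HC11-FL cells, the control, carried full length Mkl1, HC11-mutB1 cells an Mkl1 with alanine substitutions in the B1 site that contacts SRF, and HC11-ΔSAP cells an Mkl1 without the potentially DNA-binding SAP domain. They are called FL, mutB1 and ΔSAP cells here. The strains were stably transfected, selected with Geneticin and sorted for RFP. Cultures were grown in triplicate for 48 h in RPMI with 0.03% FCS and no EGF, and their RNA was hybridized to Affymetrix Mouse Gene 1.0 ST arrays, 3 per strain. Each construct is 1 sorted strain, so the p-values measure the spread between cultures of a strain and not between independently made strains, and no strain with an empty vector is among the arrays. Both mutant strains were compared with the same FL arrays, so these comparisons are not independent of each other. The comparison of the mutant strains with each other uses no FL array for its difference.

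IGF1 and IGF2 are secreted peptides that act mainly through the receptor tyrosine kinase IGF1R, whereas IGF2R binds IGF2 and carries it to lysosomes for degradation. The IGF binding proteins hold the ligands outside the cell, where they can withhold them from the receptor or deliver them to it, and proteases that cut the binding proteins release the ligand. In the mammary gland the axis is known for ductal growth and for cell survival, and IGFBP5 is known as a protein of the involuting gland.

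The promoters of Igfbp3, Igfbp4 and Igfbp7 are shown because these genes had the largest strain differences of the 10 and because the constructs differ in their contact with SRF, whose binding site is the CArG box. Each line gives the 200 bases before the RefSeq transcription start, 5′ to 3′ on the strand of the gene, in build GRCm38.p6. Capitals mark the motifs TATAAA and GGGCGG, found on either strand.
Igfbp3 (chr11:7213924-7214123, minus strand): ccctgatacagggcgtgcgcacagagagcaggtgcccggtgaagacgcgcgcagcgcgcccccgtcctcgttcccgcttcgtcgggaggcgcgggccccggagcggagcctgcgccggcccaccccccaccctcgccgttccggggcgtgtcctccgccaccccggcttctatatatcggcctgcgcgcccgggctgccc
Igfbp4 (chr11:99041044-99041243, plus strand): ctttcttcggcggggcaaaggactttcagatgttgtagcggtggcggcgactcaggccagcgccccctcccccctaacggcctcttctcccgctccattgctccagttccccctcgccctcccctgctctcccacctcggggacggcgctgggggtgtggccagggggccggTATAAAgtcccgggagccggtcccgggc
Igfbp7 (chr5:77408046-77408245, minus strand): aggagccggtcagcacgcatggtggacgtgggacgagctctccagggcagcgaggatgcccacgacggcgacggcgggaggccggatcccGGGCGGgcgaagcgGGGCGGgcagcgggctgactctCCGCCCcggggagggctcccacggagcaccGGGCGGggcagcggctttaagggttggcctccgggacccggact
Igfbp4 had 1 TATAAA, starting 28 bases before the start, and Igfbp7 had 4 GGGCGG motifs, starting 110, 96, 74 and 44 bases before it. The Igfbp3 window held neither motif, and none of the 3 windows held a CArG box. All 10 genes had a RefSeq window, 14 windows in all counting alternative starts. Of these, 1 window, belonging to Igf2 and starting its match 155 bases before the start, held a CArG box, compared with 389 of 32851 windows of the same length (1.18%). TATAAA was found in 2 of the 14 windows, of Igfbp4 and Igfbp6, and in 9.96% of all windows, and GGGCGG in 6 of 14 and in 31.0%. The Igfbp3, Igfbp4 and Igfbp7 windows had a GC content of 76.0%, 69.5% and 75.5%, where the median of all windows was 53.0%. High GC was not particular to these 3 genes. Over the 14 windows it ran from 49.5% in 1 Igf2 window to 79.5% for Igf1r, and it was 70.5% for Igf2r. These are matches of letters and not measured sites.

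The deposited values were log2 expression values normalized together by RMA, with array medians of 4.53 to 4.60. Across probesets, Pearson's r was 0.994 to 0.995 between arrays of the same strain and 0.985 to 0.989 between strains. The 10 genes were tested with limma within a fit over all probesets, and a gene is called lower or higher here at an adjusted p of at most 0.01. It passed all filters of the study's methods if the fold was also at least 2 and the mean log2 level at least 4, near which signals approach background. Of the 34760 probesets, 20286 reached that level, and of the 10 genes 7 did. Igf1, Igf2 and Igfbp6 did not. The Mkl1 probeset (annotated as Mrtfa) differed from FL cells by -0.12 in mutB1 (adjusted p = 0.31) and by -0.48 in ΔSAP cells (adjusted p = 0.0018) on the log2 scale. It does not separate the construct from the endogenous gene. For the proteins, the paper reports about equal overexpression of the Mkl1 variants by Western blot.

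Both ligand genes lay at the edge of detection. Igf1, the main circulating ligand, had log2 levels of 4.09, 4.28 and 4.09 in FL, 3.78, 3.79 and 3.62 in mutB1 and 3.79, 3.72 and 3.68 in ΔSAP cells. All FL arrays lay above all arrays of the mutant strains, which overlapped each other. The log2 fold change was -0.42 in mutB1 (adjusted p = 0.0042, SE 0.07) and -0.42 in ΔSAP cells (adjusted p = 0.0038, SE 0.07), a 1.34-fold lower signal in each. With a mean of 3.87 over the 9 arrays the gene could not pass all filters, and the calls were lost in 5 and 3 of 9 fits that left out 1 array (adjusted p up to 0.015 and 0.018). They were also lost when only the strains compared were fitted (adjusted p = 0.017 and 0.011).

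Igf2, the fetal growth ligand, had levels of 3.99, 3.99 and 3.99 in FL, 3.99, 4.00 and 3.87 in mutB1 and 3.99, 4.17 and 3.76 in ΔSAP cells. The 3 strains overlapped throughout. No difference was detectable, with log2 fold changes of -0.04 in mutB1 (95% confidence interval -0.26 to 0.18, adjusted p = 0.85) and -0.02 in ΔSAP cells (-0.24 to 0.20, adjusted p = 0.94). The 9 arrays held 5 distinct Igf2 values, and Igf1 and Igf2 were the 2 of the 10 genes in which the same deposited value recurred between arrays, as it did in 45.2% of all probesets. An SD of 0.00 for such a probeset does not show that cultures were alike, and the part of the recurring values in these results was not tested.

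**Figure D1:**
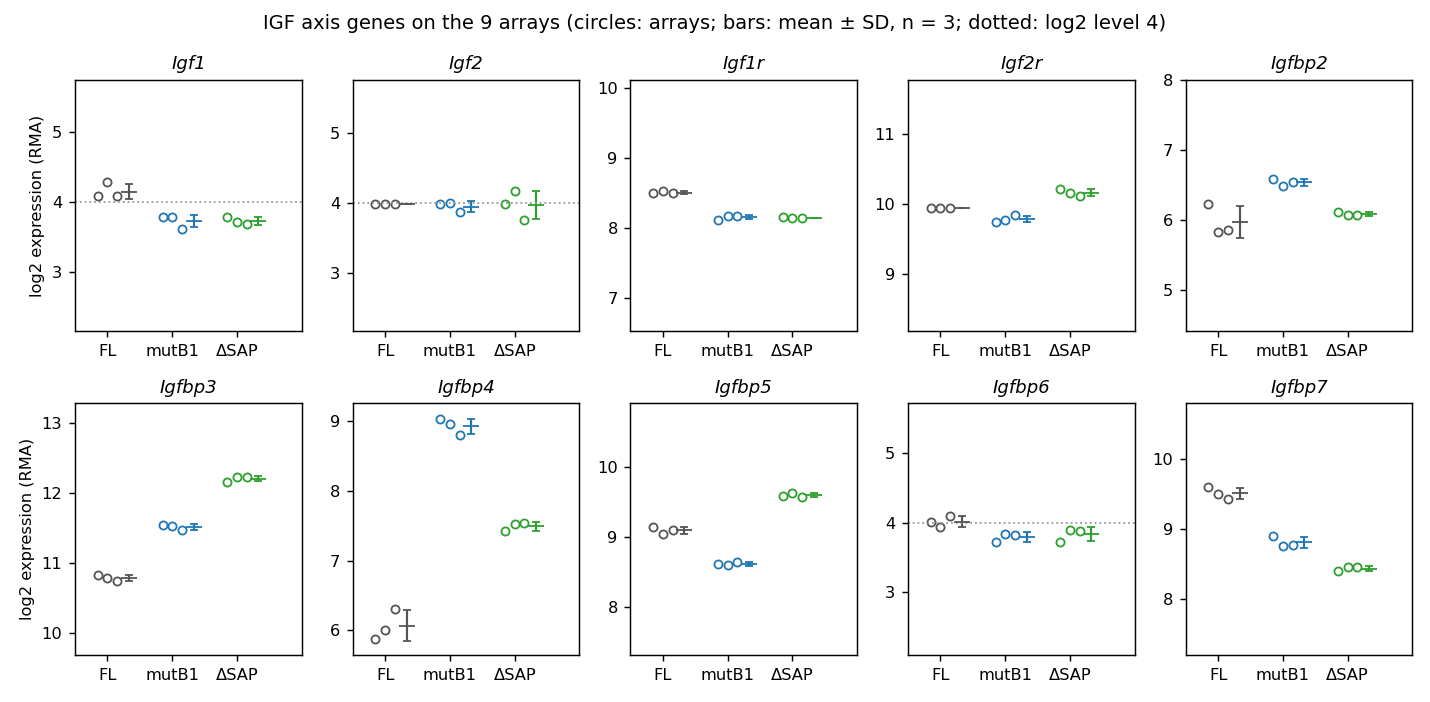
Log2 expression (y-axis, RMA units, every panel spanning the same range) of the 10 IGF axis genes in FL, mutB1 and ΔSAP cells (x-axis). Circles are arrays, bars are the mean ± SD of 3 arrays, and the dotted line is a log2 level of 4. Igfbp4 shows the widest separation, from a mean of 6.07 in FL to 8.92 in mutB1 cells, while Igf1, Igf2 and Igfbp6 stay near 4.

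The receptor genes were well above background and differed little between strains. Igf1r, the signalling receptor, had levels of 8.50, 8.53 and 8.50 in FL, 8.12, 8.17 and 8.18 in mutB1 and 8.16, 8.15 and 8.15 in ΔSAP cells. Both mutant strains lay below all FL arrays and overlapped each other. Igf1r was called lower by 1.28-fold in mutB1 (log2 fold change -0.35, adjusted p = 0.00037, SE 0.04) and by 1.28-fold in ΔSAP cells (-0.36, adjusted p = 0.00032, SE 0.04). The mutant strains differed from each other by -0.00 (95% confidence interval -0.09 to 0.08), an interval that does not reach the size of either difference from FL cells.

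Igf2r, the lysosomal receptor for IGF2, had levels of 9.94, 9.94 and 9.95 in FL, 9.75, 9.77 and 9.84 in mutB1 and 10.21, 10.16 and 10.12 in ΔSAP cells. The 3 strains did not overlap, with mutB1 lowest and ΔSAP highest. Igf2r was higher in ΔSAP than in mutB1 cells by 1.30-fold (log2 fold change 0.38, 95% confidence interval 0.27 to 0.48, adjusted p = 0.00064). Its rise over FL cells in ΔSAP was 0.22 (adjusted p = 0.0083, SE 0.04), a call lost in 9 of 9 fits that left out 1 array (adjusted p = 0.011 to 0.03). The log2 fold change itself stayed at 0.19 to 0.24 in these fits. In mutB1 cells the difference from FL cells was -0.16 (adjusted p = 0.041) and was not called.

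Among the binding proteins, Igfbp4 and Igfbp3 were higher and Igfbp7 was lower in both mutant strains than in FL cells, whereas Igfbp5 was called in opposite directions. Igfbp4, whose protein mostly inhibits IGF action and is cut by the protease PAPP-A, had levels of 5.88, 6.0 and 6.31 in FL, 9.02, 8.95 and 8.80 in mutB1 and 7.42, 7.52 and 7.54 in ΔSAP cells. The strains were far apart, with ΔSAP cells about midway on the log2 scale between the other strains. Igfbp4 was 7.25-fold higher in mutB1 (log2 fold change 2.86, adjusted p = 1.5e-06, SE 0.11) and 2.69-fold higher in ΔSAP cells (1.43, adjusted p = 5.5e-05, SE 0.11) than in FL cells. Between the mutant strains it was 2.70-fold lower in ΔSAP (log2 fold change -1.43, adjusted p = 6.8e-05), and it passed all filters in each of the 3 comparisons. In mutB1 cells its increase ranked 10 among the 20286 probesets with a mean level of at least 4.

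Igfbp3, the main carrier of circulating IGF, had levels of 10.83, 10.79 and 10.74 in FL, 11.55, 11.53 and 11.47 in mutB1 and 12.16, 12.23 and 12.23 in ΔSAP cells. The strains formed a ladder without overlap, with ΔSAP cells on top. Igfbp3 was 2.68-fold higher in ΔSAP than in FL cells (log2 fold change 1.42, adjusted p = 6.6e-07, SE 0.05) and passed all filters there. In mutB1 cells it was 1.66-fold higher (0.73, adjusted p = 1.9e-05, SE 0.05), short of the fold minimum. ΔSAP exceeded mutB1 cells by 1.61-fold (log2 fold change 0.69, adjusted p = 3e-05).

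Igfbp7, a low affinity IGF binder of the matrix, had levels of 9.60, 9.50 and 9.43 in FL, 8.90, 8.76 and 8.77 in mutB1 and 8.39, 8.45 and 8.45 in ΔSAP cells. Here the ladder ran downwards, again without overlap. Igfbp7 was 2.11-fold lower in ΔSAP than in FL cells (log2 fold change -1.08, adjusted p = 1e-05, SE 0.06), just past the fold minimum, and 1.62-fold lower in mutB1 cells (-0.70, adjusted p = 1e-04, SE 0.06). The difference between the mutant strains was -0.38 (adjusted p = 0.0035), and this call was lost in 5 of 9 fits that left out 1 array, namely mutB1 replicate 1 or 3 or any ΔSAP array (adjusted p up to 0.016).

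Igfbp5, the binding protein of mammary involution, had levels of 9.15, 9.04 and 9.10 in FL, 8.62, 8.60 and 8.65 in mutB1 and 9.59, 9.63 and 9.57 in ΔSAP cells. FL cells lay between the mutant strains without overlap. Igfbp5 was 1.39-fold lower in mutB1 (log2 fold change -0.47, adjusted p = 0.00017, SE 0.04) and 1.41-fold higher in ΔSAP cells (0.50, adjusted p = 0.00012, SE 0.04). The direct difference of 0.97 between ΔSAP and mutB1 cells (95% confidence interval 0.87 to 1.08, adjusted p = 4.2e-06) was 1.96-fold, just under the fold minimum.

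Igfbp2, whose protein binds IGF2 somewhat better than IGF1, had levels of 6.23, 5.83 and 5.86 in FL, 6.59, 6.49 and 6.54 in mutB1 and 6.12, 6.08 and 6.08 in ΔSAP cells. mutB1 arrays were highest, and ΔSAP arrays fell inside the range of FL, in which replicate 1 lay above the other 2 arrays. Igfbp2 was 1.48-fold higher in mutB1 than in FL cells (log2 fold change 0.57, adjusted p = 0.0052, SE 0.10). This call was kept without FL replicate 1 (adjusted p = 0.00015, log2 fold change 0.70) and lost in the other 8 fits that left out 1 array (adjusted p up to 0.023). ΔSAP and FL cells differed by 0.12 (95% confidence interval -0.11 to 0.35, adjusted p = 0.55), a value that moved between 0.05 and 0.25 as single arrays were left out, with the highest without FL replicate 1 (adjusted p = 0.013). ΔSAP and mutB1 cells differed by -0.45 (adjusted p = 0.02), which was called without FL replicate 1 (adjusted p = 0.00064), with FL left out of the fit (adjusted p = 0.0021) and with dim probesets removed before it (adjusted p = 0.01).

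Igfbp6, which prefers IGF2 over IGF1, lay near background with levels of 4.01, 3.93 and 4.09 in FL, 3.72, 3.84 and 3.82 in mutB1 and 3.72, 3.90 and 3.88 in ΔSAP cells. FL arrays lay above the others, which overlapped. The differences of -0.22 in mutB1 (adjusted p = 0.066) and -0.18 in ΔSAP cells (adjusted p = 0.14) were not called.

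**Figure D2:**
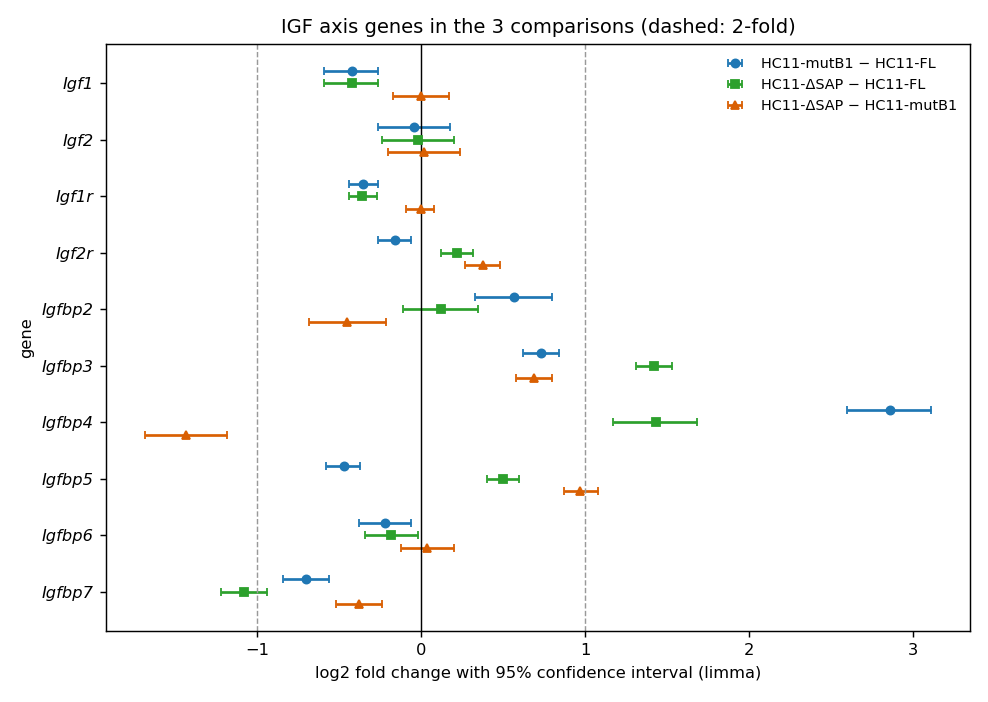
Log2 fold changes (x-axis) of the 10 IGF axis genes (y-axis) in the 3 comparisons, with 95% confidence intervals from limma. Dashed lines mark a fold of 2. Igfbp4 lies at 2.86 for mutB1 against FL, and Igfbp5 at -0.47 and 0.50 for the mutant strains against FL.

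Of the 10 genes, 1 (Igfbp4) passed all filters as higher in mutB1 against FL and 0 as lower, where 1.65% and 1.21% of the 20286 probesets did. In ΔSAP cells 2 (Igfbp3 and Igfbp4) passed as higher and 1 (Igfbp7) as lower, beside 1.49% and 1.51% of probesets. Between the mutant strains 1 (Igfbp4) passed as lower in ΔSAP and 0 as higher, beside 1.70% and 1.16%. At the adjusted p alone, 3 were called higher and 4 lower in mutB1 (7.10% and 5.04% of all 34760 probesets), and 4 higher and 3 lower in ΔSAP cells (7.10% and 6.02%). In ΔSAP against mutB1 cells 3 were called higher and 2 lower (4.34% and 5.04%). Over the 7 genes with a mean level of at least 4, absolute log2 fold changes had a median of 0.57, 0.50 and 0.45 in the 3 comparisons in this order, and of 0.17, 0.16 and 0.14 over the 20286 probesets. The genes were chosen with results known, so these counts describe them and carry no test. A two-sided exact permutation test on 3 and 3 arrays gave p = 0.1 for every pair of strains that did not overlap in these genes, the smallest p that design allows.

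**Figure D3:**
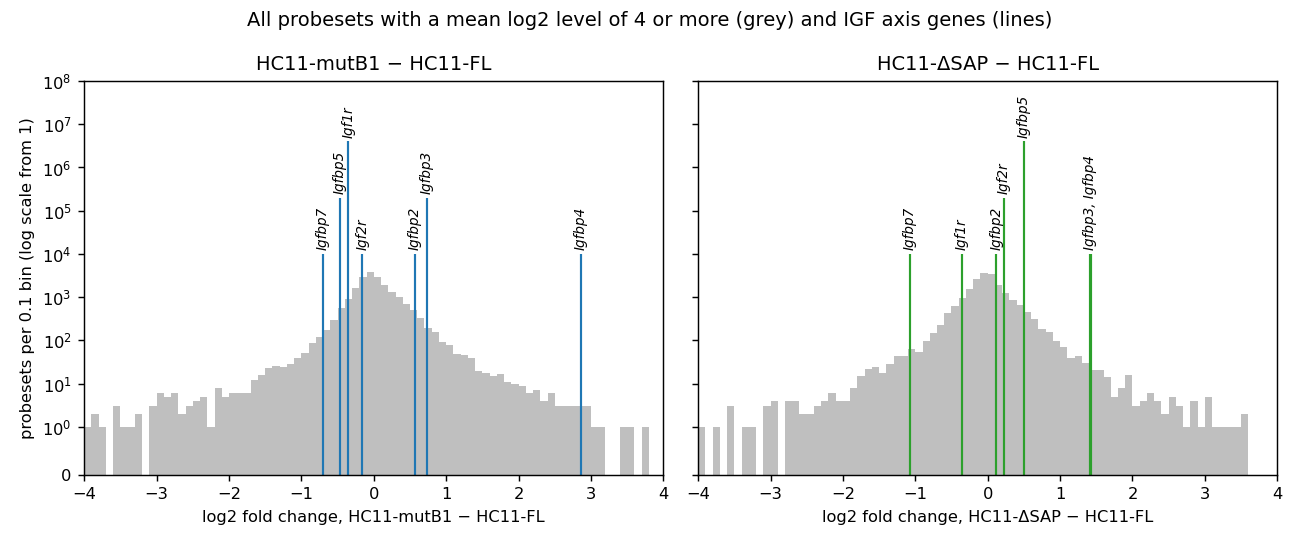
Number of probesets (y-axis, log scale from 1) per bin of log2 fold change (x-axis) for mutB1 and ΔSAP against FL, over the 20286 probesets with a mean log2 level of at least 4, with the 7 IGF axis genes of that level as vertical lines whose heights separate the labels only. The x-axis runs from -4 to 4 and leaves out 7 and 3 probesets, and Igfbp4 stands in the thin right tail of mutB1 at 2.86.

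Among the proteases that cut IGF binding proteins and their inhibitors, some protease genes differed between strains. Of 9 such genes, all with a probeset, 4 were called higher and 0 lower in mutB1, and 3 higher and 1 lower in ΔSAP against FL cells. Over all 34760 probesets 7.10% were called higher and 5.04% lower in mutB1, and 7.10% and 6.02% in ΔSAP cells. The protease genes Pappa2, Adam28 and Adamts1 were not called, nor were the inhibitor genes Stc1, at a mean level of 3.17, and Stc2. Stc2 differed from FL cells by 0.01 in mutB1 (adjusted p = 0.96) and by -0.27 in ΔSAP cells (adjusted p = 0.085). Pappa, which encodes the protease PAPP-A that cuts IGFBP4, had levels of 4.17, 4.13 and 4.36 in FL, 5.20, 5.20 and 5.20 in mutB1 and 6.89, 6.86 and 6.81 in ΔSAP cells. It was lowest in FL and highest in ΔSAP cells, an order in which Igfbp3 but not Igfbp4 also ran. Pappa was 6.20-fold higher in ΔSAP (log2 fold change 2.63, adjusted p = 1.9e-07, SE 0.06) and 1.98-fold higher in mutB1 cells (0.98, adjusted p = 2.2e-05, SE 0.06). Its level in FL cells was close to background, so the size of these folds is uncertain, and the mutB1 value was the same deposited number on all 3 arrays.

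Adam12, a metallopeptidase that cuts IGFBP3 and IGFBP5, had levels of 8.39, 8.39 and 8.39 in FL, 9.74, 9.70 and 9.80 in mutB1 and 7.41, 7.46 and 7.43 in ΔSAP cells. FL cells, with 1 deposited number on all 3 arrays, lay between the mutant strains, in the opposite order to Igfbp5. Adam12 was 2.56-fold higher in mutB1 (log2 fold change 1.36, adjusted p = 5.2e-07) and 1.94-fold lower in ΔSAP cells (-0.96, adjusted p = 3e-06). The lysosomal protease gene Ctsd was higher by 1.30-fold and 1.27-fold in mutB1 and ΔSAP cells (adjusted p = 0.00031 and 0.00049). The serine protease gene Htra1 was higher by 1.26-fold in ΔSAP cells (adjusted p = 0.00051), while its difference of 0.21 in mutB1 cells (adjusted p = 0.0069) lost its call in 8 of 9 fits that left out 1 array.

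Of 6 other ligands, receptors and carriers with a probeset, limma called 0 in any comparison. Of all probesets 7.10% and 5.04% were called higher and lower in mutB1, and 7.10% and 6.02% in ΔSAP against FL cells. Between the mutant strains the shares were 4.34% and 5.04%. With so few genes, 0 calls are near these shares. An unadjusted limma p under 0.05 was also found for 0 of the 6, and its share over all probesets was not taken. Igfals, which encodes the acid labile subunit of the circulating complex, differed from FL cells by -0.08 in mutB1 and by 0.13 in ΔSAP cells. The insulin gene Ins2 (-0.11 and -0.04), the insulin receptor-related gene Insrr (-0.10 and -0.04) and Igfbpl1 (-0.02 and 0.07) were similarly close to 0. With mean levels of 4.32 for Igfals, 4.08 for Ins2, 3.62 for Insrr and 4.07 for Igfbpl1, near or under background, differences near 0 say little of these genes. The insulin receptor gene Insr, well above background at a mean of 9.29, differed by 0.04 (95% confidence interval -0.06 to 0.14) and 0.01 (-0.09 to 0.11).

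Among 9 adaptors and phosphatases of the IGF1 and insulin receptors, 2 were called higher and 2 lower in mutB1, and 3 higher and 0 lower in ΔSAP cells, beside 7.10% and 5.04%, and 7.10% and 6.02%, of all probesets. Grb14, which encodes an inhibitor of the receptor kinases, had levels of 7.55, 7.33 and 7.54 in FL, 10.05, 10.07 and 9.94 in mutB1 and 9.35, 9.32 and 9.32 in ΔSAP cells. The strains stood apart in the same order as for Igfbp4. Grb14 was 5.84-fold higher in mutB1 (log2 fold change 2.55, adjusted p = 2.6e-07, SE 0.07) and 3.62-fold higher in ΔSAP cells (1.86, adjusted p = 1.2e-06, SE 0.07). The docking protein gene Irs1 was 1.43-fold lower in mutB1 cells (log2 fold change -0.52, adjusted p = 0.00013), and its difference of 0.23 in ΔSAP cells (adjusted p = 0.0087) lost its call in 7 of 9 fits that left out 1 array. The phosphatase gene Ptpn1, named as the remaining call in ΔSAP cells, was 1.25-fold higher there (log2 fold change 0.32, adjusted p = 0.0047) and differed by 0.17 in mutB1 cells (adjusted p = 0.083). Irs2 differed by 0.46 in mutB1 (adjusted p = 0.0081, lost in 8 of 9 such fits) and by -0.10 in ΔSAP cells (adjusted p = 0.57). The adaptor gene Shc1 was 1.39-fold lower in mutB1 cells (adjusted p = 0.00097) and differed by -0.14 in ΔSAP cells (adjusted p = 0.20).

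In the PI3K, AKT, mTOR and FOXO arm downstream of the receptor, 19 of 22 listed genes had a probeset and 0 passed all filters. At the adjusted p alone, 7 were called higher and 1 lower in mutB1, and 3 higher and 2 lower in ΔSAP cells. Of all probesets 7.10% and 5.04% were called higher and lower in mutB1, and 7.10% and 6.02% in ΔSAP cells. All 19 genes had a mean level of at least 4, while these shares, here and above, include probesets under that level. Akt2 had a second probeset (mean 9.83), which was called lower in mutB1 cells (log2 fold change -0.26, adjusted p = 0.0057). The Akt2 probeset counted here was not called there (-0.10, adjusted p = 0.23). The regulatory subunit gene Pik3r1 was 1.69-fold lower in mutB1 cells (log2 fold change -0.76, adjusted p = 0.00015) and differed by -0.12 in ΔSAP cells (adjusted p = 0.34). Pik3r2, another regulatory subunit gene, was higher by 1.45-fold and 1.62-fold in mutB1 and ΔSAP cells (adjusted p = 8.3e-05 and 2e-05). The transcription factor genes Foxo1 and Foxo3, whose proteins AKT keeps out of the nucleus, were higher by 1.36-fold and 1.52-fold in mutB1 (adjusted p = 0.0021 and 0.00044) and by 1.61-fold and 1.41-fold in ΔSAP cells (adjusted p = 0.00018 and 0.0011). For Foxo1 the mutB1 call was lost without mutB1 replicate 1 (adjusted p = 0.011). The 2 genes called lower in ΔSAP cells were Akt1 (log2 fold change -0.42, adjusted p = 0.0014) and Eif4ebp1 (-0.26, adjusted p = 0.0089). In mutB1 cells Akt1 and Eif4ebp1 differed by -0.19 and -0.10 (adjusted p = 0.057 and 0.28). Among genes with a mean level of at least 4, absolute log2 fold changes in mutB1 and ΔSAP cells had medians of 0.19 and 0.15 in this arm, 0.46 and 0.14 in the adaptors and phosphatases, 0.30 and 0.34 in the proteases and 0.06 and 0.05 in the other ligands, receptors and carriers, beside 0.17 and 0.16 over the 20286 probesets.

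Igf2bp1, which encodes an RNA binding protein of the Igf2 transcript, had levels of 7.30, 7.31 and 7.45 in FL, 4.44, 4.56 and 4.36 in mutB1 and 4.34, 4.37 and 4.39 in ΔSAP cells. Its signal was near background in both mutant strains, at means of 4.45 and 4.36, so the size of its folds and the difference between the mutant strains are uncertain. Igf2bp1 was lower by 7.47-fold in mutB1 (log2 fold change -2.90, adjusted p = 1.3e-07, SE 0.07) and by 7.95-fold in ΔSAP cells (-2.99, adjusted p = 1.3e-07, SE 0.07), and the mutant strains differed by -0.09 (95% confidence interval -0.24 to 0.06). A second Igf2bp1 probeset, at a mean of 2.91, was too dim to follow it. Igf2bp3, also near background, differed by -0.10 and -0.08.

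**Figure D4:**
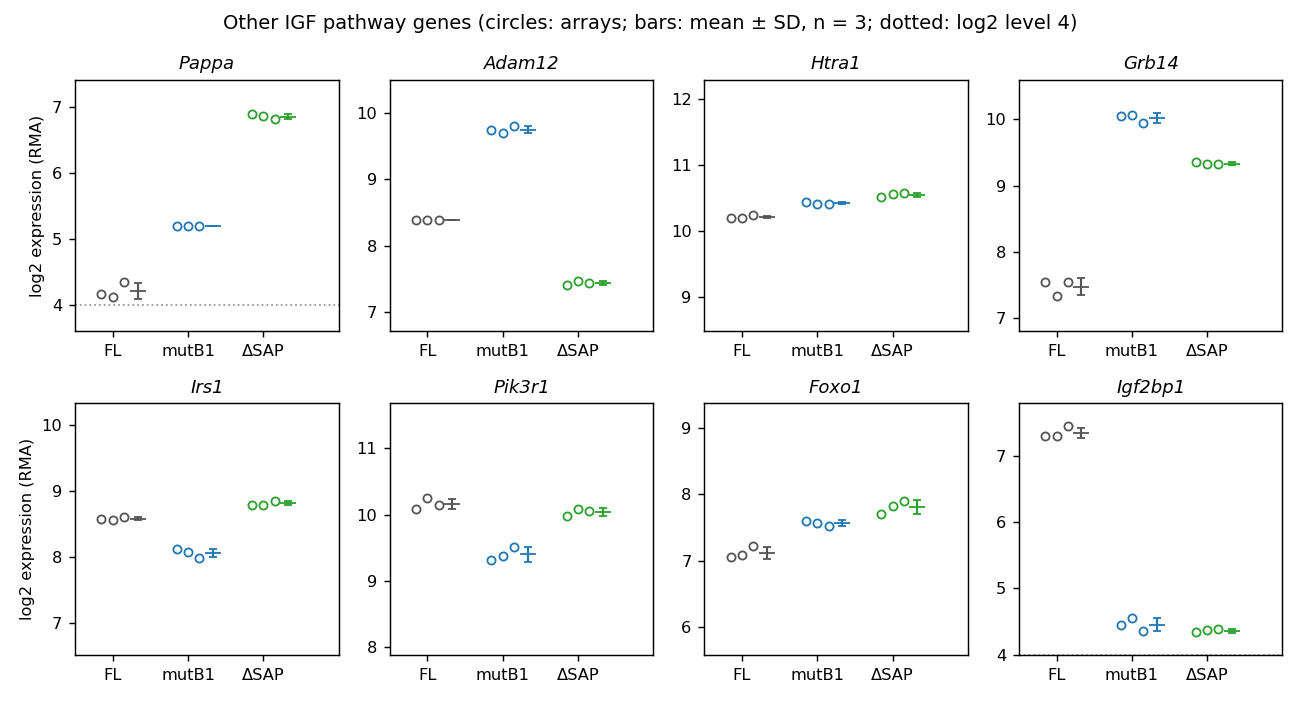
Log2 expression (y-axis, RMA units) of 8 other genes of the IGF pathway in the 3 strains (x-axis), with circles for arrays and bars for the mean ± SD of 3 arrays. Pappa rises to 6.85 in ΔSAP, Adam12 and Grb14 are highest in mutB1, and Igf2bp1 is high in FL cells only, at 7.35.

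For the genes that passed against FL, the probesets with the most similar course over the 9 arrays were found by the root mean square distance of log2 values, each centred on its own mean, among 14280 candidates. This is a description over 9 arrays that share 3 strains. Nearest to Igfbp3 were Slc9a3r1, Mt2 and Padi2 at distances of 0.06, 0.06 and 0.07, where Igfbp3 itself spread by 0.58 around its mean. Nearest to Igfbp4 (spread 1.17) were the sodium channel gene Scn3a, the hydroxylase gene Cyp7b1 and the protocadherin gene Pcdhb16 at 0.12, 0.17 and 0.20. Cyp7b1, for example, differed by 2.65 in mutB1 and by 1.40 in ΔSAP cells, whereas Scn3a had a mean of 3.86, near background, in FL cells. Nearest to Igfbp7 (spread 0.45) were Gsto1, Nupr1 and Scx at 0.06, 0.07 and 0.09.

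The epithelial label was checked with marker genes. All 6 epithelial markers (Krt8, Krt18, Epcam, Cdh1, Krt5 and Krt14) had a mean level of at least 4, and their averaged level per array was 10.12 to 10.17 in FL, 10.30 to 10.33 in mutB1 and 9.61 to 9.65 in ΔSAP cells. Its members went both ways. Krt5 and Krt14 differed by 1.15 and 0.59 in mutB1 and by -1.90 and -0.27 in ΔSAP cells, Krt8 and Krt18 by -0.72 and -0.65 and by -0.32 and -1.36, and Epcam and Cdh1 by 0.54 and 0.12 and by 0.42 and 0.37, all called except Cdh1 in mutB1 cells. The 3 endothelial markers, the leukocyte genes Ptprc and Adgre1, Adipoq of adipocytes and Lum of fibroblasts lay under that level. Of the 5 fibroblast markers 4 reached it, with an averaged level over the 5 of 5.34 to 5.44, 5.09 to 5.20 and 5.55 to 5.62 in the strains in this order. These 4 went different ways. In mutB1 and ΔSAP cells Dcn differed by -0.48 and 1.81, Pdgfra by 0.51 and -0.42 and Pdgfrb by -0.87 and -0.38, all called, while Thy1 differed by -0.27 and -0.10 (adjusted p = 0.32 and 0.77). The averaged level of the 3 adipocyte markers was 5.07 to 5.17, 4.68 to 4.75 and 5.52 to 5.64. Fabp4 alone of the 3 was called (-0.97 and 1.34), while Plin1 (-0.09 and -0.03) and Adipoq (-0.10 and 0.07) were not. The averaged level of the 3 leukocyte markers, of which Cd68 alone reached a level of 4, was 4.72 to 4.81, 4.58 to 4.66 and 4.93 to 4.95. Cd68 was called lower in mutB1 (-0.34, adjusted p = 0.00062) and higher in ΔSAP cells (0.45, adjusted p = 0.00013), while Ptprc and Adgre1 were not called. The part of these markers in the IGF axis results was not tested, and in RNA of whole cultures fewer cells of a type and less RNA per cell cannot be told apart.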

How the data were processed

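Transcripts of 3 HC11 strains (HC11-ΔSAP, HC11-mutB1, HC11-FL) were measured on Affymetrix Mouse Gene 1.0 ST arrays, 3 per strain. The authors deposited log2 expression values of 34760 probesets, normalized together by RMA, using the affy package under R 2.10.0 per the submitters' processing notes. Scans were not used here, so no background step or scan batch was examined. The number of arrays limits the precision. Probesets were named by the array annotation, in which 21640 have 1 gene symbol, 1321 several and 11799 none listed.

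limma 3.58.1 (R 4.3.3) was fitted to the deposited values with a mean for each strain, a spread shared by all 9 arrays (6 residual and 1.93 prior degrees of freedom) and Benjamini-Hochberg adjustment over all probesets. The filters were those of the study's methods. The fit was also run on simulated data, but the outcome is not given here and no result rests on it. Members, pathway lists and markers were chosen with earlier results of these data known. Named by rule are all 10 members, per pathway list the genes that passed and the 4 with the largest change, and for each member that passed the 3 nearest probesets. Outside this rule Ptpn1, Insr, Akt1, Akt2, Eif4ebp1 and the uncalled protease and inhibitor genes are named, without values under the alternative settings. Further called pathway genes are counted but not named. Gene order and promoters came from RefSeq (GRCm38.p6). Replicate numbers were not taken to pair the samples. The alternatives varied the filters, the fit and the scaling, added a replicate block, or left out single arrays.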

Additional observations from a re-analysis of the deposited data

How the results depend on the processing

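The number of members that passed all filters (1, 3 and 1 in mutB1 against FL, ΔSAP against FL and ΔSAP against mutB1) was the same under each filter, fit and scaling tried and with each array left out, except that a fold minimum of 1.5 gave 3 in mutB1 against FL and 3 in ΔSAP against mutB1. At the adjusted p alone, leaving out 1 array gave 5 to 7, 5 to 6 and 4 to 6 members. Deviations of arrays of the same number correlated at -0.11 to 0.26 in 9 pairs (0.12, 0.26 and 0.11 among the replicates 1), a range overlapping the -0.26 to 0.23 of 18 other pairs, and as not every pair was over 0.1 the numbers were not taken as pairs. With the replicate block 1, 3 and 1 members passed all filters and 7, 6 and 4 were called at the adjusted p alone, where Igf2r in ΔSAP against FL (adjusted p = 0.029) and Igfbp7 between the mutant strains (0.011) were not called. Of 1335 log2 fold changes of named genes under 15 settings, 1230 kept their direction and call, 92 lost the call, 3 gained one and 10 reversed. Those that reversed were small: quantile normalization gave 0.01 for Ctsd between the mutant strains, and leaving out arrays gave -0.06 to 0.01, -0.12 to 0.09 and -0.08 to 0.13 for Igf2 in the 3 comparisons, -0.16 to 0.02 for Igfals and -0.06 to 0.01 for Igfbpl1 in mutB1, -0.09 to 0.04 for Ins2 and -0.08 to 0.02 for Insrr in ΔSAP against FL, and -0.03 to 0.12 for Insrr between the mutant strains. The causes were not tested. As each member had 1 probeset, the mean over all probesets of a gene gives the same values. Signals of Igf1, Igf2 and Igfbp6 near background limit what can be seen of them.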

Other observations

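Some IGF axis genes lie beside each other or beside genes that differed, in the same or in another direction. In the RefSeq gene order Igfbp2 is next to Igfbp5 and Igfbp1 next to Igfbp3, and Igfbp4 lies between Top2a and Tns4. Igfbp2 and Igfbp5 differed in opposite directions in mutB1 cells (log2 fold changes of 0.57 and -0.47), and Igfbp1, at a mean level of 3.88, differed by -0.03 while Igfbp3 differed by 0.73. Of 18 direct neighbours, 15 had a probeset and 10 reached a mean level of 4. Against FL, 1 passed all filters as higher and 0 as lower in mutB1, beside 1.65% and 1.21% of the 20286 probesets. In ΔSAP cells 0 passed as higher and 1 as lower, beside 1.49% and 1.51%. Polr2b, Spryd3, Synm, Tns3 and Ins2 reached that level and were not called in any comparison. Tns4, a focal adhesion gene, passed all filters in mutB1 against FL (log2 fold change 1.19, adjusted p = 1e-05) and differed by 0.42 in ΔSAP cells (adjusted p = 0.0027, lost in 3 of 9 fits that left out 1 array). Its levels were 6.0, 6.23 and 6.11 in FL, 7.30, 7.25 and 7.35 in mutB1 and 6.56, 6.46 and 6.58 in ΔSAP cells, the order of Igfbp4. Top2a, the topoisomerase of dividing cells on the other side of Igfbp4, was called higher in mutB1 (0.71, adjusted p = 0.00022) and passed as lower in ΔSAP cells (-1.68, adjusted p = 2.2e-06). Adgrl3, an adhesion receptor gene beside Igfbp7, was called higher in mutB1 (0.83, adjusted p = 0.00014), where Igfbp7 was lower, and differed by 0.17 in ΔSAP cells (adjusted p = 0.19). The ribosomal protein gene Rpl37a, beside Igfbp2, was called lower in mutB1 (-0.24, adjusted p = 0.01), where Igfbp2 was higher, and in ΔSAP cells (-0.44, adjusted p = 0.00037). Mrpl23, a mitochondrial ribosomal protein gene beside Igf2, was called lower in ΔSAP cells (-0.39, adjusted p = 0.0085) and differed by 0.28 in mutB1 cells (adjusted p = 0.043). These neighbours were named after their values were seen, and no test of shared control was made. Top2a and Mrpl23 had 2 probesets each, and only the brighter was examined.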
